A study of Mus musculus with 8 samples.

Results

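Malat1, Neat1 and 7 host transcripts of small nucleolar RNAs (snoRNAs), Gas5, Snhg1, Snhg3, Snhg5, Snhg6, Snhg8 and Snhg12, were followed in mouse 4T1 cells after knockdown of MEK5 or ERK5. They were taken by gene symbol, matched through the Entrez Gene number of each listed gene, and are 9 of the 24454 genes in the expression tables. The cells, a mammary carcinoma line, were infected with lentivirus carrying a short hairpin RNA and selected with puromycin, and they were grown in medium with fetal bovine serum. The 3 groups were shCTRL with a non-targeting vector (3 libraries), shMEK5 with a hairpin against MEK5 titled shMEK5-2 (2 libraries) and shERK5 with a hairpin against ERK5 titled shERK5-1 (3 libraries). Each target was therefore represented by 1 hairpin in 1 selected line, and all cells, controls included, carried a vector. The labels do not say that the replicates were separate cultures, so a p-value here speaks for the spread of these libraries alone, which may be technical. Total RNA was sequenced after depletion of ribosomal RNA with a stranded kit.

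MEK5 (gene Map2k5) is the kinase that phosphorylates and activates ERK5 (gene Mapk7). Malat1 and Neat1 are abundant long non-coding RNAs that stay in the nucleus: Malat1 gathers in nuclear speckles, where splicing factors are stored, and Neat1 is the scaffold around which paraspeckles assemble. Neat1 has a short and a long form, and only the long form builds paraspeckles. The snoRNA hosts carry snoRNAs in their introns: the introns are processed into snoRNAs that guide chemical modification or cleavage of ribosomal RNA, and the spliced exons are exported and, in several hosts such as Gas5, degraded by nonsense-mediated decay when they are translated. Many host genes begin with a run of pyrimidines, the 5′ terminal oligopyrimidine (TOP) element also found in ribosomal protein genes.

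Malat1 and Neat1 lie beside each other on mouse chromosome 19 (GRCm38), both on the minus strand, at chr19:5795690-5802672 and chr19:5824708-5845480, with 22.0 kb between them. The 3′ ends are shown because they are what sets these transcripts apart from ordinary polyadenylated RNAs: in both, RNase P cuts the primary transcript before a tRNA-like RNA, and the cut end is protected by a triple helix of U-rich stretches with an A-rich tail. The Malat1 window is the 100 bases before the annotated tRNA-like RNA (chr19:5795982-5796081), and the Neat1 window is the last 100 bases of the long form (chr19:5824708-5824807), both read 5′ to 3′ from the GRCm38 sequence with T for U. Capitals mark the 3 stretches of at least 10 bases that both windows hold, in the same order: TTTCTTTTCCTGA, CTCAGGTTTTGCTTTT and AAAAAGCAAAA. The search for shared stretches was chosen after the sequences were seen.
Malat1 3′ end: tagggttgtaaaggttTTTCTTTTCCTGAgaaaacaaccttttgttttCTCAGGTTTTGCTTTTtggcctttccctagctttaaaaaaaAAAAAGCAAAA
Neat1 3′ end: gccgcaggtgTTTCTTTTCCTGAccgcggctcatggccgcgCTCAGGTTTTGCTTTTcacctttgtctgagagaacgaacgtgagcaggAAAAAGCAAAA
The stretches were taken from these windows, so a match to long Neat1 was fixed beforehand and the count is no test. All 3 occurred together in the last 100 bases of 1 of 139316 annotated transcripts of at least 100 bases, the long Neat1 form itself. The Malat1 window is not such a transcript end, because the annotated Malat1 gene runs on through the tRNA-like RNA.

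GENCODE M21 placed 27 snoRNA genes inside the 7 hosts: 9 in Gas5, 8 in Snhg1, 4 in Snhg12, 2 each in Snhg3 and Snhg5, and 1 each in Snhg6 and Snhg8. All 27 lay in introns of the host transcript with most exons. The snoRNAs of Snhg5 and Snhg6, hosts that differed from shCTRL in both knockdowns, are printed here. Snord47, 1 of the 9 in Gas5, is printed too. It was the only tested hosted snoRNA, of 5, that itself differed from shCTRL (limma, adjusted p under 0.05). Of all tested genes, 48.7% differed in shMEK5 and 63.3% in shERK5. Box C (TGATGA) and box D (CTGA), which bind the core proteins of a C/D snoRNA, are in capitals.
Snord47 (Gas5 intron, chr1:161038082-161038158, plus strand): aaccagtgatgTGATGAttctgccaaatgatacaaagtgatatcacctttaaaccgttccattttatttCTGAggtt
Snord50a (Snhg5 intron, chr9:88521529-88521600, minus strand): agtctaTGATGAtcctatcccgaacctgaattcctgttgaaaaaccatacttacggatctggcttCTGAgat
Snord50b (Snhg5 intron, chr9:88521797-88521868, minus strand): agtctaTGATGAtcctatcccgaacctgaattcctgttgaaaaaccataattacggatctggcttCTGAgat
Snord87 (Snhg6 intron, chr1:9942463-9942549, minus strand): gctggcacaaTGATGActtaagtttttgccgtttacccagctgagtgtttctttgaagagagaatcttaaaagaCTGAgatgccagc
The Snhg5 snoRNAs Snord50a and Snord50b are 72 bases long and differ at 1 position, C50A, counted from the 5′ end of Snord50a.

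Promoter windows from RefSeq (GRCm38.p6) were found for 7 of the 9 transcripts, 8 windows in all, since Gas5 has 2 starts; Neat1 and Snhg6 were not matched. A TOP-like run, taken as a C followed by at least 4 bases that are each C or T and beginning within 5 bases of an annotated start, was present in 4 of the 7: Gas5 (at its downstream start), Snhg3, Snhg8 and Snhg12. Of all 32851 promoter windows, 18.3% held such a run. A search within 10 bases added Snhg5, and 30.7% of all windows then held one. The 5 windows run from 15 bases before the start to 30 from it, with the run in capitals.
Gas5 (chr1:161035151-161035195, plus strand): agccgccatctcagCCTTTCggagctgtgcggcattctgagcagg
Snhg3 (chr4:132353657-132353701, minus strand): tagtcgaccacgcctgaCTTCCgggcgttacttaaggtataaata
Snhg5 (chr9:88522868-88522912, minus strand): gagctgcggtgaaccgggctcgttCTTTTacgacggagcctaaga
Snhg8 (chr3:123508307-123508351, minus strand): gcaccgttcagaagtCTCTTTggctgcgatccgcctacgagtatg
Snhg12 (chr4:132308663-132308707, plus strand): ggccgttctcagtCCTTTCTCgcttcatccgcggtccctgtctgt
In the full windows of 300 bases, searched on both strands, the E-box CACGTG was found in 0 of the 7 transcripts and in 7.15% of all windows, and the core of a MEF2 box (CTA and TAG with 4 bases between them) in 1 of the 7, Snhg1, and in 3.69% of all windows. The carriers of a run within 5 bases include transcripts called in either knockdown, such as Snhg3, and transcripts that were not, such as Snhg8.

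The libraries held 41397315 to 53714288 reads assigned to genes, and expression is given in counts per 1000000 of these reads (CPM). One read was worth 0.0186 to 0.0242 CPM. Map2k5 was found at 36.3 ± 0.997 CPM in shCTRL (SD, n = 3) and at 14.2 ± 0.216 (n = 2) in shMEK5, and Mapk7 at 26.8 ± 1.60 in shCTRL and 6.53 ± 0.173 (n = 3) in shERK5, so that each hairpin's target was low in the libraries labelled for it. Mapk7 was also lower in shMEK5, at 19.5 ± 1.19 CPM. Epithelial markers summed to between 1275 and 1882 CPM in every library, lowest in shMEK5, and most of it was Krt18 and Krt8. The log2 fold changes (limma) in shMEK5 and shERK5 were -0.60 and -0.52 for Krt18 and -0.53 and -0.52 for Krt8. Against these, Cdh1 rose by 0.56 and 1.56, Krt19 by 0.39 and 1.02, and Cldn4 by 0.17 and 2.04. Epcam was at 0.10 in shMEK5 (limma, adjusted p = 0.401) and rose by 1.06 in shERK5. The 6 fibroblast markers summed to 31.6 to 47.3 CPM in shCTRL, 34.4 to 35.9 in shMEK5 and 22.9 to 28.2 in shERK5, nearly all of it Pdgfra, which fell by 0.48 in shERK5 (log2 scale, limma, adjusted p = 0.018), while Dcn and Lum were at 0 in all 8 libraries. The 6 leukocyte markers summed to 2.90 to 3.23, 1.93 to 2.15 and 2.87 to 3.73 CPM, nearly all of it Cd68, which fell by 0.43 in shMEK5 (limma, adjusted p = 0.00617), with Adgre1 and Cd3e at 0. The 6 endothelial markers summed to at most 0.386 CPM, with Kdr and Emcn at 0. The part of these markers in the results was not tested. These are bulk values relative to all assigned reads, so fewer cells that make a transcript and less of it per cell cannot be told apart.

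All 9 transcripts passed the filter for testing, 1 CPM or more in 2 or more libraries, as did 11623 genes in all. They were deeply read, with between 44386 and 90343 reads for Malat1 per library and at least 3212 for every other transcript except Snhg3, which had 125 to 369. Differences were tested with limma on log2(CPM + 1) across all tested genes, with Benjamini-Hochberg adjustment and a call at an adjusted p under 0.05, and every adjusted p below comes from that test unless another is named. Fold changes are on that log2(CPM + 1) scale. It shrinks the fall of the low Snhg3: in shMEK5 it was -0.63 on this scale and -0.75 with edgeR on reads recovered from the CPM. Both knockdowns are compared with the same 3 shCTRL libraries, so that their values against shCTRL are not independent.

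Malat1, Neat1, Snhg5 and Snhg3 were lower than in shCTRL in both knockdowns, and Snhg6 was higher in both. Snhg5 fell to 61.5% of its shCTRL level in shMEK5 and 53.7% in shERK5, the low Snhg3 to 58.4% and 75.5%, and Snhg6 reached 122% and 147%. Gas5 was called lower in shMEK5 by a small margin, and no difference from shCTRL was called for Snhg1, Snhg8 or Snhg12 in either knockdown. In shMEK5, 6 of the 9 were called, against 48.7% of all tested genes; 5 were lower, against 25.6%, and 1 higher, against 23.1%. In shERK5, 5 of the 9 were called, against 63.3% of all tested genes; 4 were lower, against 31.3%, and 1 higher, against 32%. Between the knockdowns, 2 of the 9 were called, against 39.4% of all tested genes: Snhg5 was lower in shERK5 (17.4% of genes were) and Snhg6 higher (22% were). The libraries did not overlap for 7, 5 and 5 of the 9 in these 3 comparisons, against 68.7%, 67.9% and 61% of all tested genes. With so many genes changed in these lines, the number of the 9 that changed is no result in itself, and the account turns on which did and by how much. The median log2 fold change of the 9 was -0.20 in shMEK5 and -0.05 in shERK5, and over all tested genes -0.02 and 0.00.

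**Figure D1:**
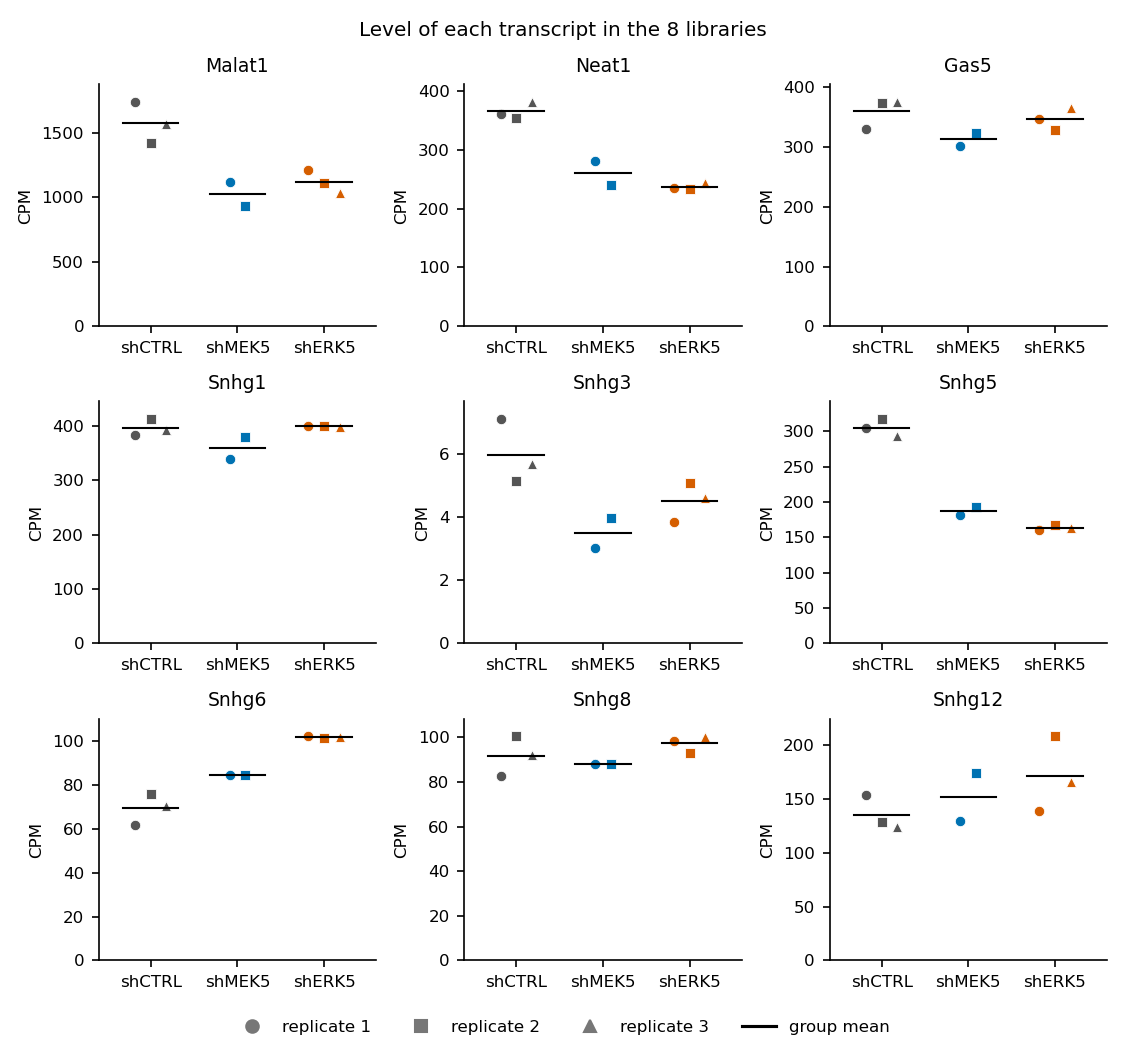
CPM (vertical axes, from 0) of each transcript in the shCTRL, shMEK5 and shERK5 libraries, with the symbol shape giving the replicate number and the line the group mean. Malat1, Neat1, Snhg3 and Snhg5 sit lower and Snhg6 sits higher in every knockdown library than in every shCTRL library, while Snhg12 varies within each group.

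Malat1 was the highest of the 9 in every library. It stood at 1736, 1418 and 1569 CPM in shCTRL replicates 1 to 3, 1117 and 934 CPM in shMEK5, and 1214, 1108 and 1030 CPM in shERK5. Every knockdown library was below every shCTRL library, and the ranges of the 2 knockdowns overlapped. The mean fell from 1574 ± 159 CPM to 1025 ± 129 in shMEK5 (log2 fold change -0.62, SE 0.106, adjusted p = 0.0014) and to 1117 ± 92.2 in shERK5 (-0.49, SE 0.0945, adjusted p = 0.00171). Between the knockdowns the difference was 0.13, with a 95% interval from -0.11 to 0.37, and was not called (adjusted p = 0.378). As a share of all assigned reads Malat1 took 0.157% ± 0.0159 in shCTRL, 0.102% ± 0.0130 in shMEK5 and 0.112% ± 0.00922 in shERK5. Among all genes its place by CPM was between 24 and 37 in shCTRL libraries, 60 and 84 in shMEK5, and 48 and 67 in shERK5.

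Neat1 stood at 361, 354 and 380 CPM in shCTRL, 280 and 240 CPM in shMEK5, and 235, 233 and 244 CPM in shERK5. Again no knockdown library reached the lowest shCTRL library, and within the knockdowns shMEK5 replicate 1 stood above the rest. The mean fell from 365 ± 13.7 CPM to 260 ± 28.4 in shMEK5 (log2 fold change -0.49, SE 0.0665, adjusted p = 0.000186) and to 237 ± 5.82 in shERK5 (-0.62, SE 0.0594, adjusted p = 1.05e-05). The difference between the knockdowns was -0.13 with a 95% interval from -0.27 to 0.02 (adjusted p = 0.159). Without shMEK5 replicate 2 it was called, at -0.24 with an adjusted p of 0.0273. The deposited value is one per gene, so the short and long Neat1 forms could not be separated. Malat1 held 4.32 ± 0.436 times the CPM of Neat1 in shCTRL, 3.94 ± 0.0669 times in shMEK5 and 4.71 ± 0.468 times in shERK5, with the shERK5 range overlapping that of shCTRL.

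**Figure D2:**
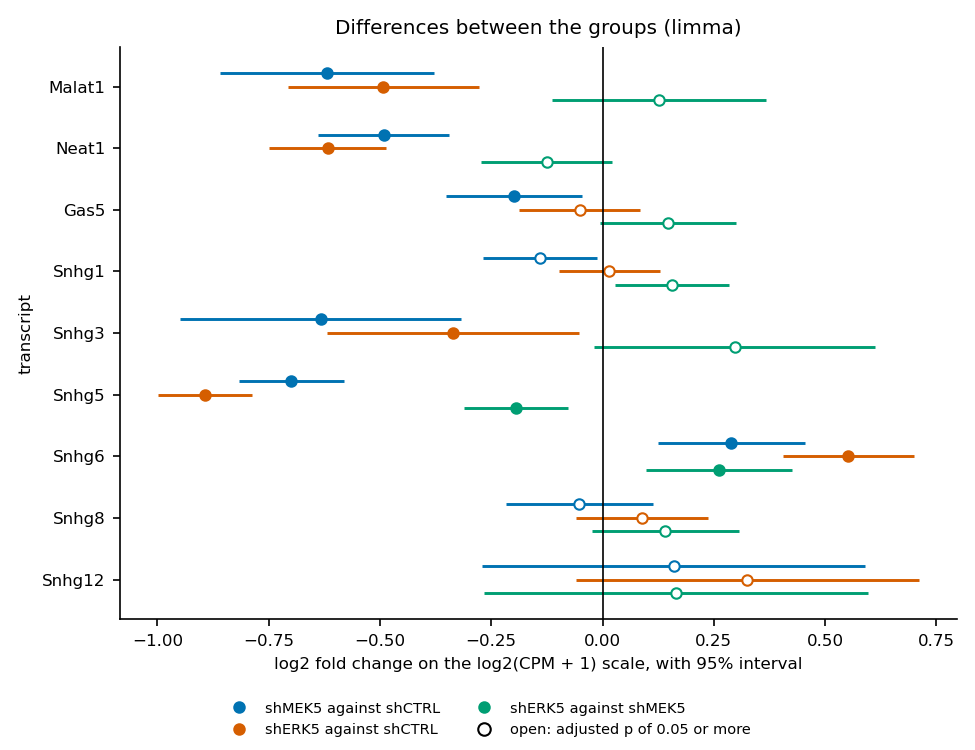
Log2 fold change on the log2(CPM + 1) scale (horizontal axis) of each transcript (vertical axis) for the 3 comparisons, with 95% intervals from limma and open circles where the adjusted p was 0.05 or more. Snhg5 lies furthest to the left at -0.70 and -0.89, and Snhg6 lies to the right of 0 in all 3 comparisons.

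Some genes on either side of Malat1 and Neat1 were lower too. Frmd8, the nearest listed neighbour, lies 5.49 kb beyond Neat1 and binds the iRhom proteins that control shedding of cell surface ligands. It stood at 37.2 ± 0.612 CPM in shCTRL, 24.98 ± 1.88 in shMEK5 and 25.2 ± 0.469 in shERK5 (log2 fold changes -0.56 and -0.55, adjusted p = 6.04e-05 and 1.69e-05). Slc25a45, a mitochondrial carrier gene 32.3 kb beyond Neat1, fell by 1.04 and 0.92 on the log2 scale, from 11.4 ± 1.12 CPM to 5.05 ± 0.826 and 5.56 ± 0.726 (adjusted p = 7.11e-05 and 3.98e-05). On the other side, Ltbp3, which encodes a protein that binds latent TGF-beta, lies 37.2 kb beyond Malat1 and fell by 0.36 and 0.53 (adjusted p = 0.00786 and 0.000255). Its call in shMEK5 was lost without shMEK5 replicate 2 (-0.20, adjusted p = 0.103). The calpain gene Capn1 at 143 kb fell by 0.56 in shMEK5 (adjusted p = 2.03e-05) and was at 0.02 in shERK5 (adjusted p = 0.695). Of the 11 tested neighbours reported here, 5 (45.5%, against 25.6% of all tested genes) were lower and 0 higher in shMEK5, with a median of -0.20. In shERK5 4 (36.4%, close to the 31.3% of all tested genes) were lower and 1 higher, with a median of 0.02; the 1 became 2 without shCTRL replicate 3.

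**Figure D3:**
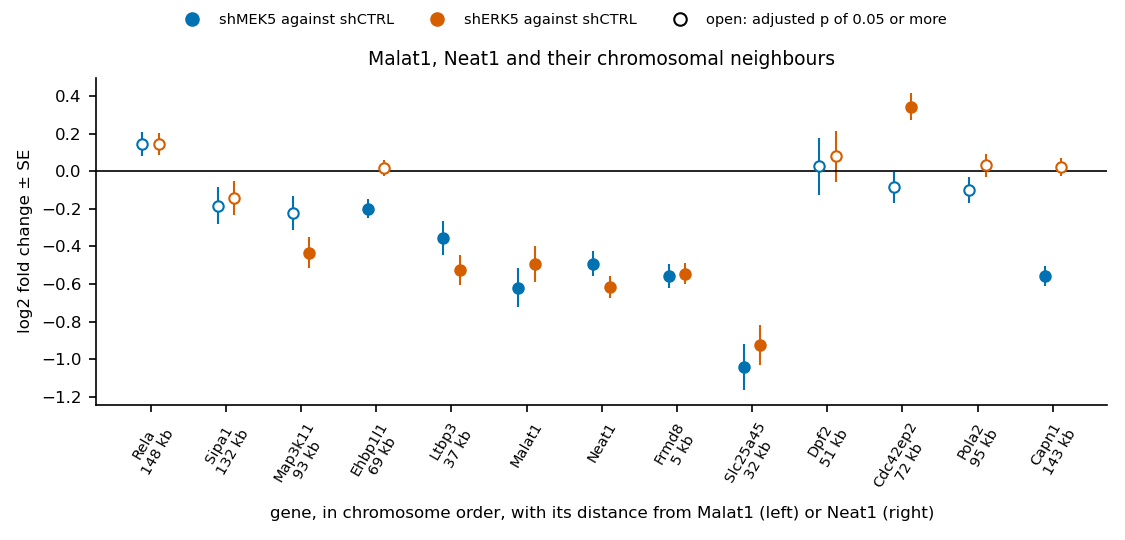
Log2 fold change ± SE (vertical axis) of Malat1, Neat1 and 11 tested neighbours, in chromosome order (horizontal axis, with the distance in kb from the nearer of the 2 transcripts), for shMEK5 and shERK5 against shCTRL. Malat1, Neat1, Frmd8, Slc25a45 and Ltbp3 lie below 0 with filled circles (adjusted p under 0.05) in both knockdowns, and Dpf2, Pola2, Sipa1 and Rela have open circles in both.

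Genes for the proteins of the nuclear bodies that hold these 2 RNAs were counted as well. Of 19 tested paraspeckle protein genes, 6 fell and 2 rose in shMEK5 (median -0.13), and 10 fell and 1 rose in shERK5 (median -0.17). The share that fell was 31.6% in shMEK5, not far from the 25.6% of all tested genes, and 52.6% in shERK5, against 31.3%. The 1 that rose in shERK5 became 2 without shCTRL replicate 3. Sfpq, which binds Neat1 and is required for paraspeckles, fell from 170 ± 5.76 CPM to 131 ± 0.937 and 93.3 ± 7.73 (log2 fold changes -0.37 and -0.86, adjusted p = 0.00123 and 1.34e-06). Rbm12, an RNA-binding protein gene, fell by 0.72 and 0.90, and Taf15, of the FET family of RNA-binding proteins, was at -0.16 in shMEK5 (adjusted p = 0.0756) and fell by 0.47 in shERK5. Zc3h6, a zinc finger gene, went the other way, with 0.78 and 0.29. Of 24 nuclear speckle and SR protein genes, 9 rose and 6 fell in shMEK5 (median 0.05), and 5 rose and 8 fell in shERK5 (median -0.06). The share that rose was 37.5% in shMEK5, against 23.1% of all tested genes, and 20.8% in shERK5, against 32%. The share that fell was close to that of all tested genes in both knockdowns, at 33.3% against 31.3% in shERK5. Pnisr fell by 0.68 and 0.69, Luc7l3 by 0.47 and 0.88 and Acin1 by 0.30 and 0.41, while the splicing factor Srsf7 rose by 0.54 and 0.26; these genes encode proteins with arginine and serine rich regions.

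Among the snoRNA hosts, Snhg5 and Snhg6 moved in opposite directions. Snhg5 (chr9:88521052-88522897) hosts the C/D snoRNAs Snord50a and Snord50b printed above. It stood at 304, 317 and 294 CPM in shCTRL, 181 and 193 CPM in shMEK5, and 160, 168 and 163 CPM in shERK5. The 3 groups did not overlap, with shERK5 lowest. The mean fell from 305 ± 11.6 CPM to 187 ± 8.41 in shMEK5 (log2 fold change -0.70, SE 0.0531, adjusted p = 4.49e-06) and to 163 ± 3.97 in shERK5 (-0.89, SE 0.0475, adjusted p = 2.31e-07). It was lower in shERK5 than in shMEK5 by 0.19 (SE 0.0531, adjusted p = 0.0144). With shMEK5 replicate 2 left out this difference was no longer called (-0.15, adjusted p = 0.132).

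Snhg6 (chr1:9942025-9944118) hosts Snord87. Its levels were 61.9, 76.1 and 70.3 CPM in shCTRL, 84.9 and 84.7 CPM in shMEK5, and 102, 101 and 102 CPM in shERK5. The 3 groups were again apart, with shERK5 highest and the replicates of each knockdown close together. The mean rose from 69.5 ± 7.16 CPM to 84.8 ± 0.124 in shMEK5 (log2 fold change 0.29, SE 0.0743, adjusted p = 0.00854) and to 102 ± 0.433 in shERK5 (0.55, SE 0.0664, adjusted p = 4.83e-05). It was higher in shERK5 than in shMEK5 by 0.26 (SE 0.0743, adjusted p = 0.0173). With either shMEK5 replicate left out this difference was no longer called (adjusted p = 0.0829 without replicate 1 and 0.0779 without replicate 2). The coding gene Mcmdc2 overlaps Snhg6 on the other strand but had at most 7 reads in any library.

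The opposite moves changed the make-up of the summed CPM of these 7 hosts, a sum that leaves out all other snoRNA hosts. Snhg5 made up 22.4% ± 0.622 of the summed CPM of the 7 hosts in shCTRL, 15.8% ± 0.433 in shMEK5 and 12.7% ± 0.170 in shERK5. Snhg6 made up 5.09% ± 0.370, 7.16% ± 0.528 and 7.93% ± 0.215. The sum itself was 1362 ± 45.2 CPM in shCTRL, 1188 ± 85.9 in shMEK5 and 1285 ± 29.5 in shERK5. The CPM of Snhg6 was 0.228 ± 0.0209 of that of Snhg5 in shCTRL, 0.453 ± 0.0210 in shMEK5 and 0.624 ± 0.0177 in shERK5, with no overlap between groups.

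**Figure D4:**
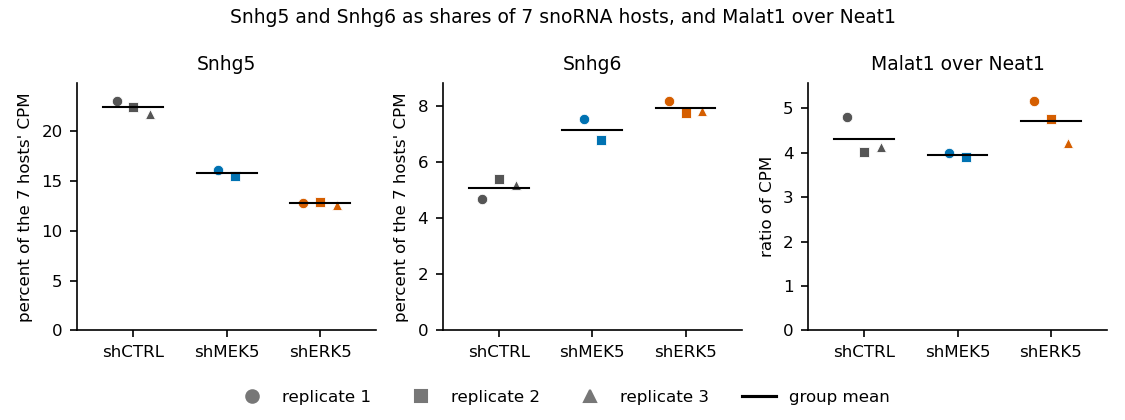
Left and middle: Snhg5 and Snhg6 as percent of the summed CPM of the 7 snoRNA hosts in each library; right: the ratio of Malat1 to Neat1 CPM; shapes give the replicate number and lines the group mean. The Snhg5 share steps down from 22.4% to 15.8% and 12.7% without overlap of the groups, whereas the shCTRL and shERK5 values of the Malat1 to Neat1 ratio overlap.

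Snhg3 (chr4:132351933-132353686), the host of the H/ACA snoRNAs Snora73a and Snora73b, was the lowest of the 9. It stood at 7.09, 5.15 and 5.67 CPM in shCTRL, 3.02 and 3.95 CPM in shMEK5, and 3.85, 5.07 and 4.59 CPM in shERK5. Knockdown libraries were all below the shCTRL libraries, but shERK5 replicate 2 came close to shCTRL replicate 2. The mean went from 5.97 ± 1.01 CPM to 3.49 ± 0.661 in shMEK5 (log2 fold change -0.63, SE 0.142, adjusted p = 0.0043) and 4.50 ± 0.613 in shERK5 (-0.34, SE 0.127, adjusted p = 0.0393). Neither call was firm. The one in shERK5 was lost when replicate 1 of shCTRL (-0.22, adjusted p = 0.144) or of shERK5 (-0.25, adjusted p = 0.117) was left out. It was also lost without shCTRL replicate 3 or shERK5 replicate 3 (0.0677 and 0.0772) and with no filter on low values (0.076). The one in shMEK5 was lost when shMEK5 replicate 1 was left out (-0.48, adjusted p = 0.0505). Snhg3 overlaps Rcc1, which encodes the exchange factor of the GTPase Ran, on the same strand, and how the authors assigned shared reads was not given in the sources used here. Rcc1 did not fall with it: it was at 161 ± 7.44 CPM in shCTRL, 178 ± 14.1 in shMEK5 (log2 fold change 0.14, adjusted p = 0.0952) and 206 ± 8.80 in shERK5 (0.35, adjusted p = 0.00037).

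Gas5 (chr1:161034601-161038539), which accumulates in arrested cells and hosts 9 snoRNAs, stood at 331, 373 and 374 CPM in shCTRL, 301 and 324 CPM in shMEK5, and 347, 328 and 364 CPM in shERK5. Both shMEK5 libraries were below all shCTRL libraries, narrowly at the nearest, and shERK5 overlapped shCTRL. The mean was 359 ± 24.8 CPM in shCTRL, 312 ± 16.1 in shMEK5 (log2 fold change -0.20, SE 0.0689, adjusted p = 0.0342) and 346 ± 18.1 in shERK5 (-0.05, 95% interval -0.19 to 0.08, adjusted p = 0.483). The shMEK5 call was not firm. It was lost with TMM scaling (adjusted p = 0.0574), with RLE scaling (0.0544), with no filter on low values (0.0649), with edgeR's quasi-likelihood test (0.0608) and with DESeq2 (0.0532) on the recovered reads, and without shCTRL replicate 2, shCTRL replicate 3, shMEK5 replicate 1 or shMEK5 replicate 2. Zbtb37, a zinc finger gene that overlaps Gas5 on the other strand, fell from 32.7 ± 1.255 CPM to 23.7 ± 2.18 and 25.8 ± 2.13 (log2 fold changes -0.45 and -0.33, adjusted p = 0.00124 and 0.0026); whether the counting used strand was not given in the sources used here, and the part of Zbtb37 in the Gas5 values was not tested.

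Snhg1 (chr19:8723487-8726326), the host of 8 snoRNAs, was the steadiest. It stood at 384, 412 and 392 CPM in shCTRL, 339 and 381 CPM in shMEK5, and 401, 401 and 399 CPM in shERK5. The shMEK5 libraries were just below the shCTRL libraries, and shERK5 lay inside the shCTRL range. They were also below all shERK5 libraries, and the log2 difference between the knockdowns, 0.16, was not called (adjusted p = 0.0523). The log2 fold change was -0.14 in shMEK5 (SE 0.0575, adjusted p = 0.0646) and 0.02 in shERK5 (95% interval -0.10 to 0.13, adjusted p = 0.813). In shMEK5 it was called without shMEK5 replicate 2 (-0.23, adjusted p = 0.0239). Snhg8 (chr3:123507552-123508336), the host of the H/ACA snoRNA Snora24, stood at 82.6, 100.4 and 92.1 CPM in shCTRL, 88.1 CPM in both shMEK5 libraries, and 98.4, 93.2 and 100.3 CPM in shERK5. All knockdown values lay inside the shCTRL range, and the log2 fold changes were -0.05 (95% interval -0.22 to 0.11, adjusted p = 0.589) and 0.09 (-0.06 to 0.24, adjusted p = 0.266).

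Snhg12 (chr4:132308678-132311024), which hosts Snora16a, Snora44, Snora61 and Snord99, varied more within groups than the rest of the abundant hosts. It stood at 154, 129 and 124 CPM in shCTRL, 130 and 174 CPM in shMEK5, and 139, 208 and 166 CPM in shERK5. All 3 groups overlapped, and shERK5 replicate 2 was highest. The log2 fold change was 0.16 in shMEK5 (SE 0.186, 95% interval -0.27 to 0.59, adjusted p = 0.507) and 0.32 in shERK5 (SE 0.166, 95% interval -0.06 to 0.71, adjusted p = 0.122), so a rise of over 1.5-fold in shERK5 lies within the interval. DESeq2 on the recovered reads called the shERK5 difference (0.33, adjusted p = 0.0314), as did limma without shERK5 replicate 1 (0.46, adjusted p = 0.0438). The library with the highest Snhg12 in each group was shCTRL replicate 1, shMEK5 replicate 2 or shERK5 replicate 2. Departures from the group mean were correlated between these libraries over all 11623 tested genes. Those of shERK5 replicate 2 correlated with those of shCTRL replicate 1 at r = 0.40 and of shMEK5 replicate 2 at r = 0.52. Between shCTRL replicate 1 and shMEK5 replicate 2 the value was r = 0.13. With 2 libraries in shMEK5 their departures mirror each other, so shMEK5 replicate 1 has the same r values with the opposite sign. These values were taken across genes that share libraries and depth, and their part in the Snhg12 values was not tested.

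Of the 27 hosted snoRNA genes, 8 had a row in the tables and 5 passed the filter: Snord47, Snord22, Snora16a, Snora44 and Snora24. Of all tested genes, 48.7% were called in shMEK5 and 63.3% in shERK5, with 25.6% and 31.3% lower. A count of 1 lower call among 5 is therefore no result in itself. Only Snord47 of the 5 was called, and it was lower in both knockdowns. It stood at 2.40, 2.13 and 2.04 CPM in shCTRL (125, 91 and 93 reads), 1.11 and 1.30 CPM in shMEK5 (46 and 62 reads), and 1.10, 1.05 and 1.39 CPM in shERK5 (59, 56 and 62 reads). No knockdown library reached the shCTRL range. The log2 fold changes were -0.53 (SE 0.105, adjusted p = 0.00204) and -0.55 (SE 0.0941, adjusted p = 0.000513). At this low level the pseudocount shrinks the fold: edgeR's quasi-likelihood test on the recovered reads gave -0.83 and -0.90 (adjusted p = 0.00309 and 0.000532). Its host Gas5 did not move to that extent: there were 6.14 ± 0.986 Snord47 reads per 1000 Gas5 reads in shCTRL, 3.86 ± 0.238 in shMEK5 and 3.40 ± 0.370 in shERK5, with both knockdowns below all shCTRL libraries. Reads per 1000 host reads were also lower in all 5 knockdown libraries than in all shCTRL libraries for 3 of the other 7 snoRNAs with a row. Snora24 went from between 25.4 and 27.3 per 1000 Snhg8 reads to between 20.6 and 22.4 in shMEK5 and 16.1 and 24.2 in shERK5. Snora16a went from between 7.96 and 8.74 per 1000 Snhg12 reads to between 7.24 and 7.85 and between 3.70 and 7.45. Snord87, with few reads, went from between 3.07 and 8.38 per 1000 Snhg6 reads to between 1.74 and 2.84 and between 1.77 and 2.59. Snord22 went the other way in shMEK5, from between 35.4 and 39.5 per 1000 Snhg1 reads to between 44.3 and 46.2. In shERK5 it was between 34.3 and 38.2, overlapping shCTRL. The ratios of Snora44, Snora61 and Snord99 in shMEK5 overlapped those in shCTRL. In shERK5 Snora44 was between 5.86 and 9.34 per 1000 Snhg12 reads, below its shCTRL range of 9.91 to 12.7. Those of Snora61 and Snord99 overlapped shCTRL in shERK5 too. These ratios were not tested, and a lower ratio was neither particular to Snord47 nor common to all. Snord22 of Snhg1, the highest of the hosted snoRNAs, was at 14.7 ± 1.38, 16.3 ± 0.861 and 14.2 ± 0.880 CPM and was not called in either knockdown (adjusted p = 0.23 and 0.633). Snora24 of Snhg8 was at 2.42 ± 0.282, 1.89 ± 0.117 and 1.84 ± 0.513 CPM (log2 fold changes -0.24 and -0.28, adjusted p = 0.175 and 0.0674). For Snhg12, Snora16a had log2 fold changes of 0.01 and -0.10 and Snora44 of -0.05 and -0.16, none of them called. The snoRNAs of Snhg5 had no row, and Snord87 of Snhg6 had 7 to 27 reads per library and was not tested. Reads on a snoRNA can come from the mature snoRNA, which is short for this kind of library, or from unspliced host RNA.

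**Figure D5:**
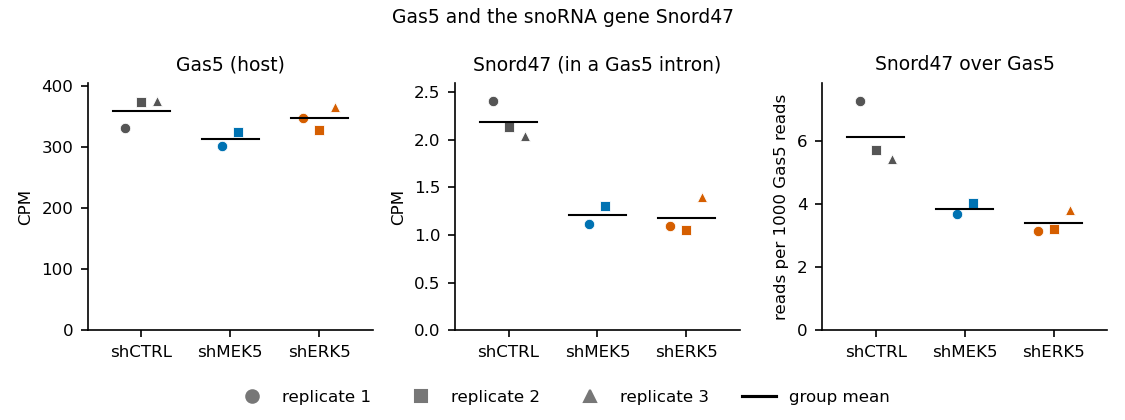
CPM of Gas5 (left) and of Snord47, which lies in a Gas5 intron (middle), and Snord47 reads per 1000 Gas5 reads (right), in each library, with shapes for the replicate number and lines for the group mean. Snord47 and its ratio to Gas5 are lower in all 5 knockdown libraries than in the 3 shCTRL libraries, whereas Gas5 in shERK5 overlaps shCTRL.

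Levels were compared between transcripts per kilobase of annotated exon. Counting all exonic bases of a gene, Malat1 was highest at 225 CPM per kb in shCTRL, 147 in shMEK5 and 160 in shERK5. In shCTRL Snhg5 came next at 176 ± 6.69 CPM per kb, followed by Snhg1 at 133 ± 4.92, Snhg8 at 107 ± 10.5 and Gas5 at 95.5 ± 6.61. The next levels were 60.6 ± 6.24 for Snhg6 and 56.3 ± 6.70 for Snhg12, which did not differ beyond their spread, as was also the case for Snhg8 and Gas5. Neat1, a long transcript, came to 17.6 ± 0.658 CPM per kb and Snhg3 to 6.05 ± 1.02. In the knockdowns Snhg5 lost its place: it came to 108 CPM per kb in shMEK5, below Snhg1, and to 94.5 in shERK5, below Snhg1 and Snhg8, where Snhg6 had come to 88.9. The order depends on the length used. In a second count each host was taken per kilobase of its spliced transcript with most exons. Malat1 and Neat1 kept the length of their whole span, 6.983 and 20.771 kb, so the lengths were not of 1 kind. Gas5 (716 CPM per kb), Snhg1 (655) and Snhg5 (390) then stood above Malat1 in shCTRL. In each knockdown 6 of the 7 hosts did.

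Other genes of the same biology were counted from 9 lists. Their counts are to be read against all tested genes, of which 23.1% were higher and 25.6% lower in shMEK5, and 32% higher and 31.3% lower in shERK5. Of 27 tested other snoRNA hosts, 11 were higher and 4 lower in shMEK5 (median 0.04), and 16 were higher and 5 lower in shERK5 (median 0.21). The count of 11 fell to 5, 7 or 7 without shCTRL replicate 1, 2 or 3, and to 7 or 4 without shMEK5 replicate 1 or 2, and the 5 lower in shERK5 became 3 without shCTRL replicate 3. Nop56, a core protein of C/D snoRNPs whose own gene hosts snoRNAs, rose from 504 ± 16.8 CPM to 769 ± 45.2 and 823 ± 78.0 (log2 fold changes 0.61 and 0.70, adjusted p = 0.000101 and 9.24e-06). Hspa8, a heat shock cognate chaperone gene and host of Snord14 genes, fell from 748 ± 69.1 CPM to 410 ± 4.27 and 345 ± 13.2 (-0.86 and -1.11, adjusted p = 7.4e-06 and 3.26e-07). Snhg4 fell by 0.82 and 0.46, and Epb41l4aos rose by 0.27 and 0.72; the first of these rises was lost without shCTRL replicate 1 or 3 or shMEK5 replicate 1 (highest adjusted p = 0.195).

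Of 20 genes for snoRNP proteins and their assembly factors, 8 rose and 2 fell in shMEK5 (median 0.18), and 7 rose and 3 fell in shERK5 (median 0.13). Beside Nop56, Nop10 of the H/ACA snoRNPs rose by 0.58 and 0.61, and the assembly factor genes Nufip1 and Znhit6 by 0.40 and 0.34 and by 0.32 and 0.45. The Znhit6 call in shMEK5 was lost without shMEK5 replicate 2 (adjusted p = 0.141), and the 2 that fell in shMEK5 were 1 without shMEK5 replicate 1. Of 30 translation genes with a TOP mRNA, 6 rose and 5 fell in shMEK5 (median 0.00), and 11 rose and 10 fell in shERK5 (median -0.07). The 6 that rose became 3 without shCTRL replicate 1 or 3 and 0 without shMEK5 replicate 2. The elongation factor gene Eef1a1 fell from 10100.3 ± 220.2 CPM to 5829 ± 119 and 5532 ± 264 (log2 fold changes -0.79 and -0.87, adjusted p = 1.52e-06 and 2.07e-07), and Eif3e, an initiation factor subunit, fell by 0.54 and 0.62. Naca fell by 0.30 and 0.41, and Eif3h was at -0.01 in shMEK5 (adjusted p = 0.88) and fell by 0.54 in shERK5. Several of these genes have processed copies, and the counting of shared reads was not given in the sources used here.

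Of 23 genes for nonsense-mediated decay, the pathway that removes several spliced host RNAs, 7 rose and 3 fell in shMEK5 (median 0.00), and 6 rose and 6 fell in shERK5 (median -0.04). The 7 became 4 without shMEK5 replicate 1 or 2, and the 3 became 6 without shERK5 replicate 1, which shares in the estimate of the spread, and 5 in a fit of the 2 groups alone. The endonuclease gene Smg6 fell by 0.40 and 0.44, and the exonuclease gene Xrn1 was at -0.14 in shMEK5 (adjusted p = 0.282) and fell by 0.62 in shERK5. Rbm8a, of the exon junction complex, rose by 0.25 and 0.41, and Nbas by 0.20 and 0.35; in shMEK5 these calls were lost without shMEK5 replicate 2 and without shMEK5 replicate 1. Of 18 Myc and mTOR pathway genes, 1 rose and 4 fell in shMEK5 (median -0.08), and 1 rose and 7 fell in shERK5 (median -0.07). The single rise was lost without shMEK5 replicate 1 in the first comparison, where it became 2 without shMEK5 replicate 2, and without shCTRL replicate 2, shERK5 replicate 2 or shERK5 replicate 3 in the second. The shares that fell were 22.2% and 38.9%. Mxd4, a Max partner that opposes Myc, fell by 0.72 and 0.74, Deptor, a subunit that inhibits mTOR, by 0.59 and 0.51, and Tsc2 by 0.39 and 0.26. Rictor, of mTOR complex 2, was at -0.12 in shMEK5 (adjusted p = 0.277) and fell by 0.43 in shERK5.

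Of 16 tested other long or nuclear non-coding RNAs, 4 rose and 6 fell in shMEK5 (median -0.19), and 3 rose and 7 fell in shERK5 (median -0.19). In shMEK5 the 4 became 2 without shCTRL replicate 1 or 3 and the 6 became 3 without shMEK5 replicate 2, and in shERK5 the 3 became 1 with a filter of 5 CPM. Pvt1, the neighbour of Myc, rose from 117 ± 11.3 CPM to 228 ± 7.95 and 209 ± 7.92 (log2 fold changes 0.96 and 0.83, adjusted p = 5.42e-06 and 3.27e-06). Mir17hg, the host of the miR-17 cluster, fell from 34.6 ± 4.05 CPM to 24.1 ± 0.0747 and 17.1 ± 0.433 (-0.50 and -0.98, adjusted p = 0.00103 and 3.35e-06). Firre fell by 0.68 and 0.61, and Oip5os1 was at -0.14 in shMEK5 (adjusted p = 0.0944) and fell by 0.41 in shERK5. Mir17hg and Firre thus fell in both knockdowns, like Malat1 and Neat1, and Pvt1 rose in both.

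The genes whose pattern over the 8 libraries was most like each transcript were found by the root mean square difference of log2(CPM + 1), each gene centred on its own mean. For Malat1, the nearest of 9754 genes were Smarca2, a chromatin remodelling ATPase gene, at 0.0517 and Deptor at 0.0618. Among the 9 transcripts Neat1 was nearest to Malat1, at 0.141. Genes picked as the closest of so many cannot be weighed against 1 gene named beforehand. For Neat1 the autophagy kinase gene Ulk2 was among the nearest, at 0.0560. For Snhg5 they were Nsmf at 0.0307 and Polr1c, a subunit shared by RNA polymerases I and III, at 0.0378, and for Snhg6 Rmdn3 at 0.0353 and Paxx at 0.0381. Polr1c went from 154 ± 7.73 CPM to 98.4 ± 9.02 and 82.9 ± 3.50, and Rmdn3 from 98.9 ± 8.97 CPM to 119 ± 1.497 and 146 ± 4.60. For Snhg3 the nearest were Rsph3b and Coro1b, for Snhg12 the proteasome subunit gene Psmc5 and the signal recognition particle gene Srp68, for Gas5 Asb1 and Ip6k1, for Snhg1 Dnajb1 and Tbcd, and for Snhg8 Pop7 and Col16a1, with differences between 0.0276 and 0.0791. Gas5 and Snhg1 were each other's nearest among the 9, at 0.0640, and both varied little, by 0.104 and 0.0816 around their means.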

How the data were processed

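The deposited unit is CPM: per the file values, the authors' reads per 1000000 of the reads they assigned to 24454 genes listed by Entrez number, in 8 libraries. The submitters' processing notes name STAR and mm10; the counting program, annotation and strand setting were not given in the sources used here. Each value was a whole number of reads within a tolerance of 0.01 read (100% of nonzero values), so reads could be recovered; a count of 0 allows 3 reads, or 0.0559 to 0.0725 CPM (counting error only). Symbols came from RefSeq GRCm38.p6 for 24374 genes, and snoRNAs, exon lengths and 3′ ends from GENCODE M21.

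Those 11623 genes that reached 1 CPM in 2 or more libraries were tested with limma 3.58.1 (trend, robust) on log2(CPM + 1), 1 mean per group over all 8 libraries, in R 4.3.3. The step was also run on simulated data with known changes. Of 50 genes changed 1.25-fold in those data it recovered 28, 26 and 20 in the 3 comparisons. What share of changes of this size was missed in the deposited libraries was not tested. At 1.5-fold it recovered 43, 48 and 43, and at 2-fold and 4-fold all 50. There were 6, 24 and 17 false calls, to be read against these recovered genes and not against all 11623. Alternatives were a pseudocount of 0.1, 2 other filters, 3 scalings, edgeR 4.0.16 and DESeq2 1.42.0 on the recovered reads, 2 groups alone, a replicate block, and leaving out each library. The 9 transcripts and the 9 gene lists were chosen with earlier results of these data known. From each list the 4 genes with the smallest adjusted p in either knockdown are named; for each transcript, the 2 genes with the most similar pattern, among tested genes with a mean of at least 5 CPM, an established symbol and no overlap with it. Overlapping coding genes were added. A listed neighbour and a gene of similar pattern are not reported here, and the neighbour is left out of its list's counts. Replicates of 1 group differed by more than sampling noise (chi-square per degree of freedom 8.23 to 42.6), so none was counted as a duplicate.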

Additional observations from a re-analysis of the deposited data

How the results depend on the processing

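Of 486 fold changes of the 9 transcripts under 18 alternatives, 453 kept their direction and their side of the threshold. Malat1, Neat1, Snhg5 and Snhg6 against shCTRL did so under every alternative in both knockdowns. Leaving out each library in turn gave 3929 to 6055 called genes in shMEK5 and 6416 to 7278 in shERK5 against shCTRL (5663 and 7360 reported), with 4 to 6 and 4 to 5 of the 9 transcripts called. Between the knockdowns it gave 2864 to 4825 genes (4581 reported) and 1 to 3 of the 9 transcripts (2 reported); the lowest counts of both came without shMEK5 replicate 1, which leaves that group with 1 library that is assumed to vary like the others. The direction of 5 small differences, none of them called, reversed when 1 library was left out. Snhg8 in shMEK5 ranged from -0.12 (without shCTRL replicate 1) to 0.0153 (without shCTRL replicate 2), Snhg12 in shMEK5 from -0.0493 (without shMEK5 replicate 2) to 0.37 (without shMEK5 replicate 1), and Snhg1 in shERK5 from -0.00696 (without shCTRL replicate 1) to 0.0443 (without shCTRL replicate 2). Between the knockdowns Snhg12 ranged from -0.0443 (without shMEK5 replicate 1) to 0.37 (without shMEK5 replicate 2) and Malat1 from -0.0027 (without shMEK5 replicate 2) to 0.26 (without shMEK5 replicate 1). The cause of these was not tested.

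With the replicate number as a block, limma called 5763, 7462 and 4435 genes and 6, 4 and 3 of the 9 transcripts in the 3 comparisons; Gas5 in shMEK5 (-0.17, adjusted p = 0.0559) and Snhg3 in shERK5 (-0.34, 0.0771) were no longer called, and Snhg1 in shMEK5 (-0.15, 0.0434) and between the knockdowns (0.16, 0.0379) was. Same-numbered libraries did not all depart from their group means together (r from -0.19 to 0.52 over 11623 genes), so the numbers were not taken as a pairing. The block also took the paraspeckle genes and the chromosomal neighbours that rose in shERK5 from 1 to 2 each, and the neighbours that rose in shMEK5 from 0 to 1. EdgeR called 5660, 7390 and 4476 genes and DESeq2 5551, 7302 and 4454. Of 77 called values of named genes outside the 9, 70 kept their call under every alternative and 0 reversed. Depth limits Snhg3 and the hosted snoRNAs, which rest on under 400 reads per library apart from Snord22.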

Other observations

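Some snoRNA hosts outside the 9 also differed from shCTRL, and the 4 given here were chosen after their values were seen. Snhg15 stood at 105, 143 and 147 CPM in shCTRL, 300 and 294 CPM in shMEK5, and 319, 298 and 326 CPM in shERK5. Every knockdown library was above the highest shCTRL library, with log2 fold changes of 1.18 and 1.26 (limma, adjusted p = 0.000142 and 2.88e-05). Snhg16 rose from 198 ± 31.8 CPM (SD, n = 3) to 315 ± 27.6 (n = 2) and 321 ± 8.22 (n = 3), by 0.68 and 0.71 (limma, adjusted p = 0.00203 and 0.000549). Zfas1, the host of the Snord12 family, rose from 415 ± 26.6 CPM to 483 ± 20.03 and 585 ± 24.5 (0.22 and 0.50, limma, adjusted p = 0.015 and 3.22e-05), and the first call was lost without shMEK5 replicate 2 (adjusted p = 0.123). Snhg7 fell from 22.0 ± 1.20 CPM to 15.6 ± 0.202 in shMEK5 (-0.47, limma, adjusted p = 0.00046) and was at 21.3 ± 1.18 in shERK5 (-0.04, adjusted p = 0.575); the difference between the knockdowns was 0.43 (adjusted p = 0.00111).

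Rpph1, the RNA subunit of RNase P, which cuts the 3′ ends of Malat1 and long Neat1, was at 10168 ± 881 CPM in shCTRL, 11977 ± 1488 in shMEK5 and 9575 ± 199 in shERK5. It was called higher in shMEK5 (log2 fold change 0.23, limma, adjusted p = 0.0441), a call that was lost under 9 of 18 alternatives, and not called in shERK5 (-0.08, adjusted p = 0.357).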
